A study of Mus musculus with 32 samples.

Results

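The 8 genes described here encode enzymes of cholesterol synthesis: Hmgcs1, Fdft1, Sqle, Lss, Cyp51, Msmo1, Sc5d and Dhcr7. They were chosen by symbol, matched to Ensembl gene identifiers through the GENCODE mouse annotation (build GRCm38, which also gives the gene positions), and all 8 were among the 20368 genes with a level of at least 3 TPM, the length-scaled share of a transcript in the library, in at least 1 juvenile mouse. RNA-seq of poly-A RNA followed germ cells through the first wave of spermatogenesis in male C57BL/6J mice, with each juvenile mouse as 1 sample. There were 3 mice at 8 days postpartum (dpp) and 5 mice at each of 10, 12, 14, 16 and 18 dpp. The authors had left out other samples of 8 dpp that matched their age group poorly, so the spread at 8 dpp may be understated. The labels name no transgene or treatment, and age is what separates the juvenile groups. An adult group held 4 samples of spermatocytes at pachynema and diplonema, the late substages of meiotic prophase, which were enriched by sedimentation at unit gravity (the STA-PUT method), each from the pooled testes of 6 mice of 9 weeks. The adult samples were in a separate table and differed from the juvenile ones in age, pooling and enrichment. Their levels are therefore set beside the juvenile ones without a test.

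Cells build cholesterol from acetyl-CoA. The early enzymes make mevalonate and then isoprenoid units, farnesyl diphosphate is the branch point towards sterols, dolichol, ubiquinone and prenylated proteins, and the later enzymes close and trim the sterol rings. When sterol in the endoplasmic reticulum is low, SCAP carries the transcription factor SREBP-2 (encoded by Srebf2) to the Golgi, where proteases release its active part, and INSIG proteins hold the complex back when sterol is plentiful. In the testis, cholesterol feeds membranes of dividing germ cells and steroid synthesis in Leydig cells, sterol intermediates of the pathway accumulate as meiosis-activating sterols, and Sertoli cells supply lipids to the germ cells they nurse.

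The label of the juvenile samples is germ cells, and markers of germ cells were present in every mouse, with all 4 listed genes (Ddx4, Dazl, Mael and Tex101) above 0. The summed level of these 4 genes ranged from 709 to 929 TPM at 8 dpp and from 2216 to 2473 TPM at 18 dpp. The 8 Sertoli cell markers were also above 0 in every mouse, and their summed level, most of it Clu, ranged from 6772 to 7619 TPM at 8 dpp, from 4936 to 6826 TPM at 16 dpp, from 3220 to 4197 TPM at 18 dpp and from 292 to 430.1 TPM in the adult samples. From 8 to 18 dpp 7 of these 8 markers fell and Rhox5 rose in the limma fit across all genes. The 6 spermatogonial markers fell too, from a sum of 1077 to 1215 TPM at 8 dpp to 482 to 683 TPM at 18 dpp and 29.2 to 33.6 TPM in the adult samples, and the 6 spermatocyte markers rose, from 248 to 365 TPM to 1388 to 1554 TPM. In the adult samples the 6 spermatid markers were all present, with a sum of 961 to 1295 TPM against at most 7.15 TPM in any juvenile mouse. The 6 Leydig cell markers there summed to 206 to 269.8 TPM, within the 168 to 472 TPM of the juvenile mice. Most of this adult Leydig sum was Insl3, at a mean of 176 TPM. Cyp11a1, Hsd3b1, Star and Lhcgr lay below every juvenile mouse in the adult samples, and Cyp17a1 lay within the juvenile range. The part of these cell types in the changes of the enzymes was not tested, and in bulk RNA fewer cells of a type and less RNA per cell cannot be told apart. The mice of 18 dpp fell into 2 sets by their numbers: the Sertoli sum was 3220 to 3362 TPM in mice 1 to 3 and 4143 to 4197 TPM in mice 4 and 5, the spermatogonial sum was 482 to 501 and 652 to 683 TPM, and several enzymes differed with them, so the comparisons of the enzymes with 18 dpp were also made without mice 1 to 3.

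In the juvenile samples, 5 of the 8 enzymes were lower at 18 dpp than at 8 dpp with no overlap between mice. They were Hmgcs1, Lss, Cyp51, Msmo1 and Dhcr7, and 32.0% of all genes were also lower without overlap. Sc5d was slightly lower with overlap, and Sqle did not pass the test. Fdft1 rose, with 3 of the 5 mice of 18 dpp above every other juvenile mouse. In adult spermatocytes the contrast was wider. Fdft1 averaged 208 TPM there against 49.4 TPM at 8 dpp, Sqle 42.5 against 42.8 TPM, and Msmo1 and Dhcr7 3.47 and 3.42 TPM against 54.3 and 54.1 TPM.

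**Figure D1:**
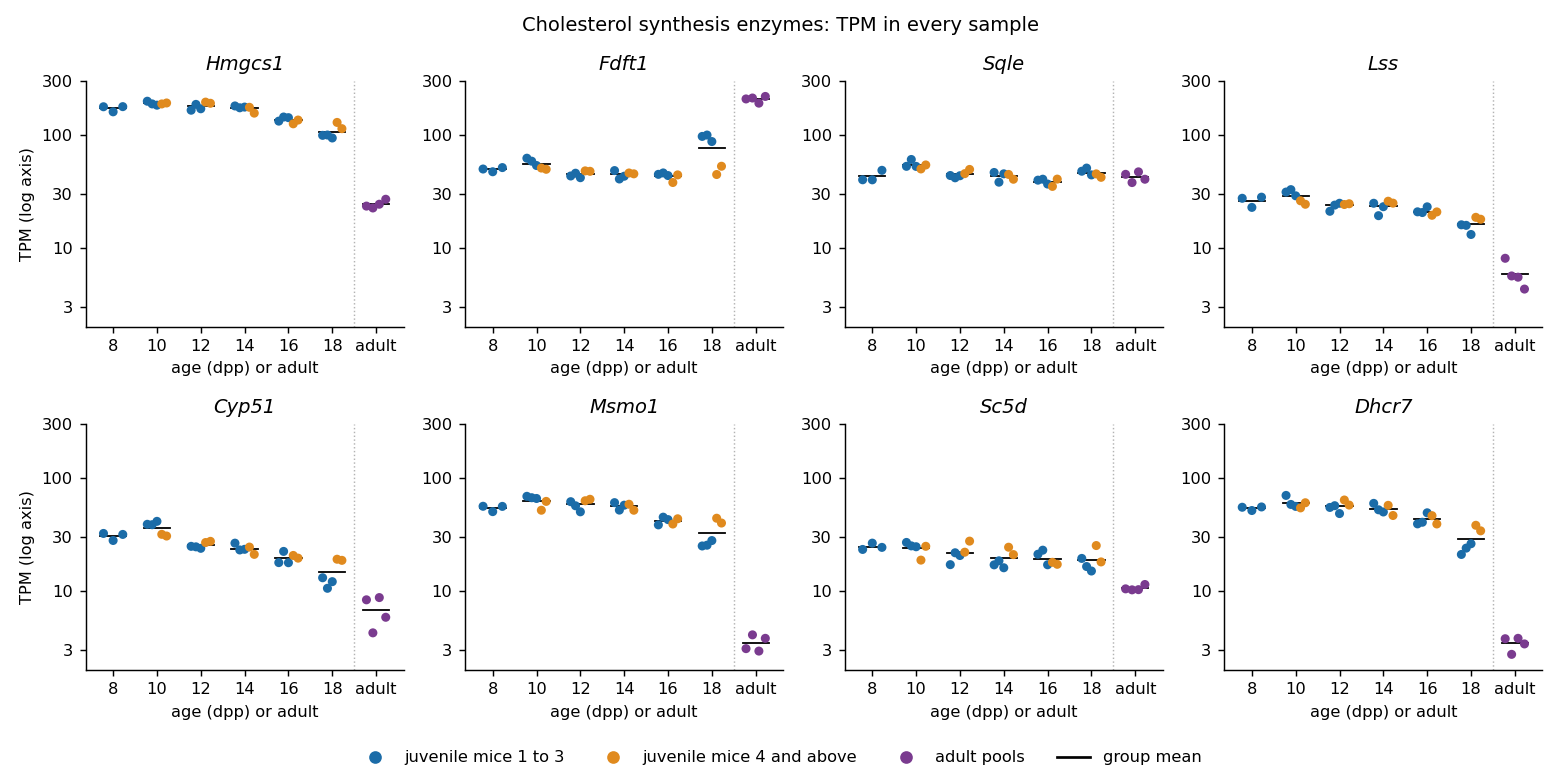
TPM of each enzyme in every sample on a log axis, by age in dpp, with the adult pools to the right of the dotted line. Blue points are juvenile mice 1 to 3, orange points later-numbered mice, purple points adult pools and black bars group means. Fdft1 rises from 43.3 TPM at 16 dpp to 208 TPM in the adult pools while Msmo1 and Dhcr7 descend to 3.47 and 3.42 TPM.

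The sequence before the RefSeq start is shown for 3 of the enzymes that fell. Genes of this pathway are known to share control by SREBP-2 and its partners NF-Y, which binds CCAAT, and Sp1, which binds GGGCGG. The RefSeq table of promoters (build GRCm38.p6) held 8 windows of 6 of the enzymes and none of Fdft1 or Sqle. The 250 bases before the annotated start were searched on both strands for a sterol regulatory element (TCACNCCAC), for CCAAT, for the GGGCGG of Sp1 and for the cyclic AMP response element TGACGTCA, and capitals mark the matches on either strand. No 2 of the 25 matches overlapped. The RefSeq starts differ from the GENCODE gene ends. Most of the Msmo1 window, with all its matches, lies inside the GENCODE gene, which ends at 64733792. The Cyp51 and Lss windows overlap their GENCODE genes in part. The Dhcr7 window with CCAAT, from 143829964, lies inside that gene, which starts at 143823145.
Hmgcs1, chr13:119690101-119690350, plus strand: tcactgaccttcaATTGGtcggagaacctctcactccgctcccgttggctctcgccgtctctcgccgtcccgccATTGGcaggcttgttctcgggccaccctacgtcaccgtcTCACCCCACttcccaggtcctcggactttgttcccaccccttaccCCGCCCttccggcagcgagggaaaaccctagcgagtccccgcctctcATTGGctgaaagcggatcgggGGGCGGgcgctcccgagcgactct
Cyp51, chr5:4104698-4104947, minus strand: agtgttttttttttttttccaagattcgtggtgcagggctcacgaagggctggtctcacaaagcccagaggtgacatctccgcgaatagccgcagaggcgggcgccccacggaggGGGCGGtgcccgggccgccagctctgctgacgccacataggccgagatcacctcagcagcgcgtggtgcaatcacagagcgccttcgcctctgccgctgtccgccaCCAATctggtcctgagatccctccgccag
Msmo1, chr8:64733579-64733828, minus strand: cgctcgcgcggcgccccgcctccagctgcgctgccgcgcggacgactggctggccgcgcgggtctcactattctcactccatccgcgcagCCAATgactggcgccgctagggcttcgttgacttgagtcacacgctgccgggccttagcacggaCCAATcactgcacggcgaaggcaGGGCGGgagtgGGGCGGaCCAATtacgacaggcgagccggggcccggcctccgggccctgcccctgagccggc
The sterol element sequence TCACNCCAC was found in 1 of the 8 windows, in Hmgcs1, as TCACCCCAC with its first base 137 bases before the start. Of the 32851 windows of all genes, 1.05% held a match. Only exact matches to this sequence were sought, so other forms of the sterol element in these windows were not examined. CCAAT was found in 6 of the 8 windows, at least 1 for each of the 6 enzymes, and in 33.8% of all windows. Hmgcs1 and Msmo1 each had 3 copies, Dhcr7 had 2 in 1 of its 3 windows, and Cyp51, Lss and Sc5d had 1 each. GGGCGG was found in 7 of the 8 windows, again in each enzyme, and in 32.7% of all windows, and TGACGTCA in none of the 8 windows and 1.55% of all. These are matches of letters in a window, and binding was not measured.

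Hmgcs1 (ENSMUSG00000093930, chr13:119690379-119708260, plus strand), which joins acetoacetyl-CoA and acetyl-CoA into HMG-CoA at the start of the mevalonate pathway, had the highest level of the 8 at every juvenile age. Its TPM was 178, 160.1 and 178 in the mice of 8 dpp, between 183 and 199 at 10 dpp, between 165 and 195 at 12 dpp and between 156 and 180.4 at 14 dpp. At 16 dpp the 5 mice had 132, 144, 142, 125 and 135 TPM. At 18 dpp mice 1 to 5 had 99.0, 99.7, 93.9, 129 and 114 TPM. All mice of 16 dpp were below all mice of 14 dpp, and all mice of 18 dpp were below all mice of 8 dpp, while mouse 4 of 18 dpp lay within the range of 16 dpp. Ages were compared with limma on log2(TPM + 1) over all 20368 genes, and a log2 difference is a difference on that scale, which understates changes at low levels. Hmgcs1 fell by 0.34 ± 0.07 (SE) from 14 to 16 dpp (limma adjusted p = 0.000493), by 0.35 ± 0.07 from 16 to 18 dpp (adjusted p = 0.00013), and by 0.69 ± 0.08 from 8 to 18 dpp (adjusted p = 1.56e-08). Without mice 1 to 3 of 18 dpp the difference from 16 dpp was -0.16 (limma adjusted p = 0.117). The adult samples had 23.4, 22.5, 24.3 and 26.9 TPM, below every juvenile mouse. An antisense gene, Gm48342, overlaps Hmgcs1 on the opposite strand, and a strand-specific protocol is not named in the sources used here, so reads of overlapping genes may have been shared.

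Fdft1 (ENSMUSG00000021273, chr14:63145150-63179578, minus strand) encodes squalene synthase, which joins 2 farnesyl diphosphates into squalene and is the first enzyme that commits the pathway to sterols. Up to 16 dpp its levels were 49.8, 47.1 and 51.3 TPM at 8 dpp, 49.5 to 62.1 at 10 dpp, 41.7 to 48.0 at 12 dpp, 40.7 to 48.3 at 14 dpp and 37.8 to 46.0 at 16 dpp. At 18 dpp mice 1, 2 and 3 had 96.9, 99.7 and 87.3 TPM, and mice 4 and 5 had 44.5 and 52.7 TPM. The first 3 lay above every other juvenile mouse, and the other two within the range of the younger ages. Over all 5 mice Fdft1 rose by 0.73 ± 0.15 (SE) on the log2 scale from 16 to 18 dpp (limma adjusted p = 0.000155) and was 0.54 ± 0.17 higher at 18 than at 8 dpp (adjusted p = 0.00574). Without mice 1 to 3 the differences were 0.16 (adjusted p = 0.231) from 16 dpp and -0.03 (adjusted p = 0.839) from 8 dpp, so both calls rested on these 3 mice. The 4 adult samples had 208, 212, 191 and 219 TPM, above every juvenile mouse, and only 7.06% of the 14495 genes with at least 3 TPM in an adult sample were higher on average. Ctsb, which encodes cathepsin B and overlaps Fdft1 on the opposite strand, went over the same samples from 138 to 140.2 TPM at 8 dpp to 52.6 to 57.7 TPM in mice 1 to 3 of 18 dpp, 81.5 to 86.1 TPM in mice 4 and 5, and 3.43 to 5.10 TPM in the adult samples. The spermatid markers that are present in the adult samples were at 3.43 to 7.15 TPM in sum in mice 1 to 3 of 18 dpp, and the part of spermatid RNA in the adult level was not tested.

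Sqle (ENSMUSG00000022351, chr15:59315077-59331192, plus strand), encoding squalene epoxidase, the first oxygen-requiring step and a rate-limiting one, did not pass the test between the ends of the juvenile series. The mice of 8 dpp had 40.0, 40.0 and 48.5 TPM, those of 10 dpp 52.6, 60.5, 52.5, 49.9 and 54.1 TPM, and those of 12 dpp 43.6, 41.6, 43.4, 45.3 and 49.4 TPM. All mice of 10 dpp were above those of 8 and of 12 dpp. The level lay between 38.1 and 46.4 TPM at 14 dpp and between 34.9 and 40.5 TPM at 16 dpp, and at 18 dpp mice 1 to 5 had 47.6, 50.8, 44.2, 45.1 and 42.0 TPM, all above the mice of 16 dpp. Sqle rose by 0.33 ± 0.08 from 8 to 10 dpp (limma adjusted p = 0.0404), fell by 0.27 ± 0.07 to 12 dpp (adjusted p = 0.00767), and rose by 0.25 ± 0.07 from 16 to 18 dpp (adjusted p = 0.00437). The call from 8 to 10 dpp was lost without mouse 1 or 2 of 8 dpp or mouse 1, 2, 3 or 5 of 10 dpp (6 of 28 mice left out singly, adjusted p up to 0.256). That from 16 to 18 dpp was lost without mice 1 to 3 of 18 dpp (difference 0.18, limma adjusted p = 0.192). Between 8 and 18 dpp the difference was 0.10 with a 95% interval of -0.07 to 0.27 (adjusted p = 0.275). The adult samples had 44.7, 37.8, 47.0 and 40.5 TPM, within the juvenile range.

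Lss (ENSMUSG00000033105, chr10:76531588-76557138, plus strand) encodes lanosterol synthase, which folds squalene epoxide into the first sterol. It had 27.4, 22.8 and 28.1 TPM at 8 dpp, 24.3 to 32.7 at 10 dpp, 21.03 to 24.8 at 12 dpp, 19.2 to 25.8 at 14 dpp and 19.4 to 23.0 at 16 dpp. The mice of 18 dpp had 16.0, 15.8, 13.1, 18.6 and 17.9 TPM, all below those of 16 dpp and of 8 dpp. Lss fell by 0.35 ± 0.09 from 16 to 18 dpp (limma adjusted p = 0.0028) and by 0.65 ± 0.11 from 8 to 18 dpp (adjusted p = 6.58e-06). Without mice 1 to 3 of 18 dpp the difference from 16 dpp was -0.18 (limma adjusted p = 0.283). The adult samples had 8.06, 5.62, 5.48 and 4.30 TPM. An antisense gene, 4930483K19Rik, overlaps it on the opposite strand.

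Cyp51 (ENSMUSG00000001467, chr5:4081145-4104746, minus strand) encodes lanosterol 14-alpha demethylase, the cytochrome P450 whose product is the meiosis-activating sterol FF-MAS. The mice of 8 dpp had 32.3, 27.99 and 31.7 TPM, those of 10 dpp 38.9, 38.6, 41.4, 31.7 and 30.6 TPM, and those of 12 dpp 24.8, 24.6, 23.9, 26.8 and 27.5 TPM. All mice of 12 dpp lay below all mice of 10 dpp, and the range was 21.1 to 26.5 TPM at 14 dpp and 17.8 to 22.4 TPM at 16 dpp. Mice 1, 2 and 3 of 18 dpp had 13.1, 10.6 and 12.1 TPM, and mice 4 and 5 had 19.1 and 18.7 TPM, within the range of 16 dpp. Between 10 and 12 dpp Cyp51 fell by 0.48 ± 0.12 (limma adjusted p = 0.0042) and from 16 to 18 dpp by 0.43 ± 0.12 (adjusted p = 0.00405, 0.0528 with only the mice of these ages in the fit, and 0.817 without mice 1 to 3 of 18 dpp, where the difference was -0.05), and its fall by 1.05 ± 0.14 from 8 to 18 dpp (adjusted p = 1.82e-07) was the largest of the 8. The adult samples had 8.34, 4.25, 8.73 and 5.84 TPM. Akap9, which encodes a scaffold protein and overlaps Cyp51 on the opposite strand, averaged 27.0 TPM at 8 dpp, 18.7 TPM at 18 dpp and 3.25 TPM in the adult samples.

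Msmo1 (ENSMUSG00000031604, chr8:64718139-64733792, minus strand) encodes the methylsterol monooxygenase that starts removal of the pair of methyl groups at carbon 4 of the sterol. Its levels were 56.2, 50.4 and 56.1 TPM at 8 dpp, 51.9 to 68.9 at 10 dpp, 50.2 to 64.9 at 12 dpp and 51.9 to 60.6 at 14 dpp. The mice of 16 dpp, with 38.5, 45.03, 42.9, 39.2 and 43.6 TPM, all lay below those of 14 dpp. At 18 dpp mice 1, 2 and 3 had 25.0, 25.4 and 27.9 TPM and mice 4 and 5 had 44.1 and 40.0 TPM, so that the first 3 were below every mouse of 16 dpp and the other two within their range. Msmo1 fell by 0.42 ± 0.12 from 14 to 16 dpp (limma adjusted p = 0.0108) and by 0.76 ± 0.14 from 8 to 18 dpp (adjusted p = 1.8e-05). From 16 to 18 dpp it fell by 0.39 ± 0.12 (limma adjusted p = 0.00662). The limma adjusted p was 0.0654 with only the mice of these ages in the fit and 0.072 with median-of-ratios factors. Without mice 1 to 3 of 18 dpp the difference from 16 dpp was 0.0074 (limma adjusted p = 0.976). The adult samples had 3.08, 4.08, 2.93 and 3.80 TPM. The mean of 18 dpp was 9.35 times the adult mean, the widest such gap of the 8 in these separate tables.

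Sc5d (ENSMUSG00000032018, chr9:42251595-42264256, minus strand) encodes lathosterol oxidase, which makes the substrate of DHCR7. Its mice scattered widely within each age: 23.3, 26.5 and 24.3 TPM at 8 dpp, 18.8 to 26.9 at 10 dpp, 17.1 to 27.6 at 12 dpp, 16.0 to 24.4 at 14 dpp and 17.1 to 23.0 at 16 dpp. The mice of 18 dpp had 19.4, 16.4, 15.0, 25.2 and 18.1 TPM, overlapping 8 dpp. No step from age to age passed the test, and the difference of -0.39 ± 0.15 between 8 and 18 dpp passed it narrowly (limma adjusted p = 0.0244), but not with median-of-ratios scaling (-0.23, adjusted p = 0.157) or without mice 1 to 3 (-0.20, adjusted p = 0.374). Leaving out mouse 2 of 8 dpp or mouse 2 or 3 of 18 dpp also lost the call (adjusted p up to 0.0929). The adult samples were tightly grouped at 10.4, 10.2, 10.3 and 11.4 TPM, below every juvenile mouse.

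Dhcr7 (ENSMUSG00000058454, chr7:143823145-143848410, plus strand) encodes 7-dehydrocholesterol reductase, the last step of the branch through lathosterol. Its levels were 55.1, 51.6 and 55.5 TPM at 8 dpp, 54.4 to 70.2 at 10 dpp, 48.5 to 63.9 at 12 dpp, 46.6 to 59.7 at 14 dpp and 39.2 to 49.2 at 16 dpp. The mice of 18 dpp had 21.04, 23.9, 26.2, 38.2 and 34.1 TPM, all below the mice of 16 dpp. Dhcr7 fell by 0.59 ± 0.12 from 16 to 18 dpp (limma adjusted p = 0.00013) and by 0.92 ± 0.13 from 8 to 18 dpp (adjusted p = 8.19e-07). Without mice 1 to 3 of 18 dpp the difference from 16 dpp was -0.24 (limma adjusted p = 0.141). The step from 14 to 16 dpp (-0.30 ± 0.12) did not pass the threshold (adjusted p = 0.0572). The adult samples had 3.77, 2.74, 3.80 and 3.39 TPM.

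Age by age, 1 of the 8 enzymes was called from 8 to 10 dpp (Sqle, higher), where 1.20% of all genes tested were called and 0.977% called higher, and 2 from 10 to 12 dpp (Sqle and Cyp51, lower), against 21.4% of genes called and 9.39% called lower. None was called from 12 to 14 dpp by limma, where 0.172% of genes were called, and none of the 8 had an unadjusted p under 0.05. The labels name no sequencing pool, lane or run, so such a batch was not examined. The index sequences in the sample titles start over at 14 dpp. If that marks a new pool, it cannot be told apart from age in any comparison that crosses from 12 to 14 dpp. These include 18 against 8 dpp and the comparisons of transcript percentages. From 14 to 16 dpp 2 enzymes fell (Hmgcs1 and Msmo1), against 24.0% of genes called and 11.3% lower. From 16 to 18 dpp 5 fell and 2 rose, against 54.0% of genes called, 30.6% lower and 23.4% higher. Between 8 and 18 dpp 6 of 8 fell and 1 rose, with 36.3% of genes called lower and 31.8% higher. The median log2 difference of the 8 was -0.67 between 8 and 18 dpp, beside -0.09 over all genes tested. For any difference among the 6 ages all 8 were called, as were 77.6% of all genes.

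**Figure D2:**
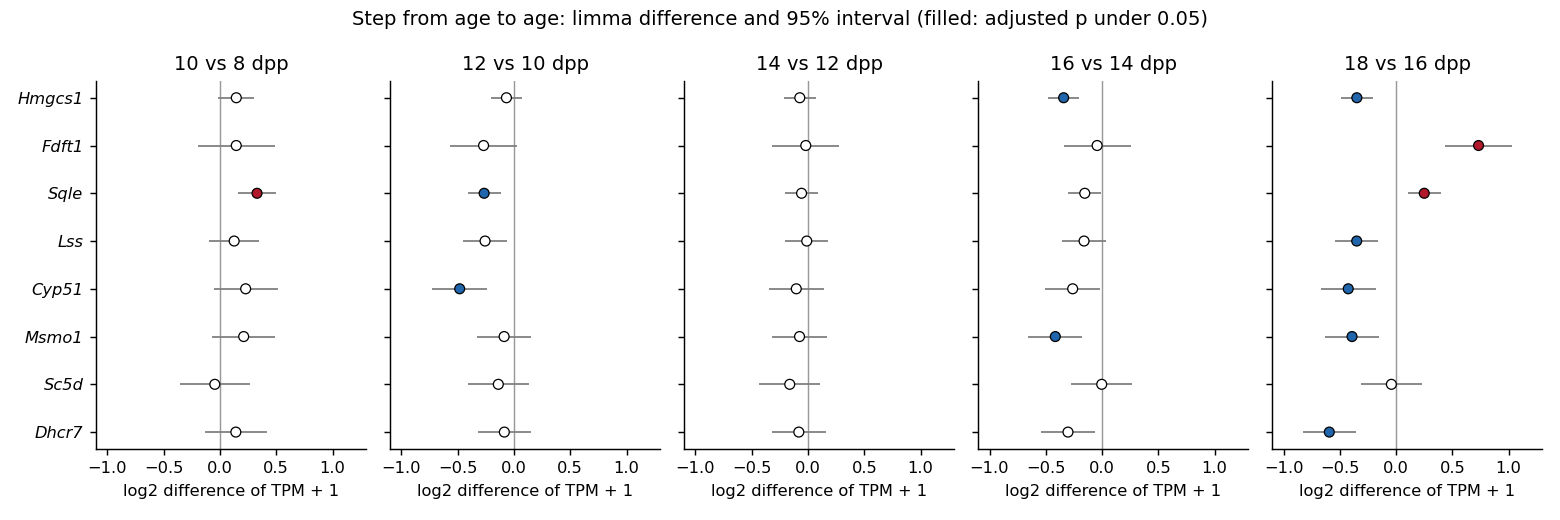
Log2 difference of TPM + 1 for each enzyme at each of the 5 steps between neighbouring ages, with its 95% interval from limma. Filled points have an adjusted p under 0.05, red for higher and blue for lower at the later age, and the step from 16 to 18 dpp holds 7 of the filled points.

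Mice that did not overlap between 8 and 18 dpp were found for 5 enzymes, all lower (Hmgcs1, Lss, Cyp51, Msmo1 and Dhcr7), where 32.0% of all genes were lower and 29.0% higher without overlap. At the steps, groups did not overlap for Hmgcs1 and Sqle, higher at 10 than 8 dpp (6.20% of all genes), for Fdft1, Sqle and Cyp51, lower at 12 than 10 dpp (7.64%), and for Hmgcs1 and Msmo1, lower at 16 than 14 dpp (7.35%). At 18 dpp Sqle was higher (13.2%) and Lss and Dhcr7 lower (12.4%) than at 16 dpp without overlap. Relative to limma on unscaled TPM, median-of-ratios scaling shifted the differences of single genes between 8 and 18 dpp by a median of 0.16. Quantile normalization shifted them by a median of -0.15. The median difference of all genes was -0.09 as TPM, 0.05 with median-of-ratios factors and -0.26 after quantile normalization. The split of all calls was 6487 higher and 7402 lower as TPM, 7589 and 5991 with median-of-ratios factors, and 5532 and 9148 after quantile normalization. The median of the 8 enzymes was -0.67 as TPM, -0.50 with median-of-ratios factors and -0.76 after quantile normalization, below the median of all genes each time. With median-of-ratios factors Sqle was called higher (0.28, adjusted p = 0.0106) and Sc5d was no longer called.

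The mice of 18 dpp stood apart in 2 sets of different level for several enzymes, so the comparisons were repeated with mice 4 and 5 as the mice of 18 dpp, an alternative chosen after seeing the data. Without mice 1 to 3, limma called 0 of the 8 enzymes between 16 and 18 dpp (2 had an unadjusted p under 0.05), where 16.9% of all genes were called. The log2 differences were then 0.16 for Fdft1, 0.18 for Sqle, 0.15 for Sc5d, 0.0074 for Msmo1, -0.05 for Cyp51, -0.16 for Hmgcs1, -0.18 for Lss and -0.24 for Dhcr7. Between 8 and 18 dpp it called 5, all of them lower, with a median of the 8 of -0.42, where 56.7% of all genes were called, 27.6% lower and 29.1% higher. These 5 were Hmgcs1 (-0.50, limma adjusted p = 6.99e-06), Lss (-0.49, adjusted p = 0.00158), Cyp51 (-0.67, adjusted p = 4.44e-05), Msmo1 (-0.36, adjusted p = 0.0078) and Dhcr7 (-0.57, adjusted p = 0.000284). Mice 1 to 3 also had the lower Sertoli and spermatogonial sums. Their germ cell sum was higher, at 2315 to 2473 TPM against 2216 to 2251 TPM in mice 4 and 5. The spermatocyte sums overlapped, at 1388 to 1554 TPM in mice 1 to 3 and 1467 to 1499 TPM in mice 4 and 5. The summed level of the 6 Leydig cell markers was 169 to 186 TPM in mice 1 to 3 and 325 to 472 TPM in mice 4 and 5, and that of the 5 peritubular markers was 524 to 586 and 1006 to 1034 TPM. The macrophage sum was 36.2 to 41.8 and 63.5 to 77.6 TPM, the endothelial sum 33.7 to 38.5 and 58.2 to 67.8 TPM, and the red blood cell sum 249.8 to 318 and 295 to 367 TPM. Their part in these differences was not tested.

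**Figure D3:**
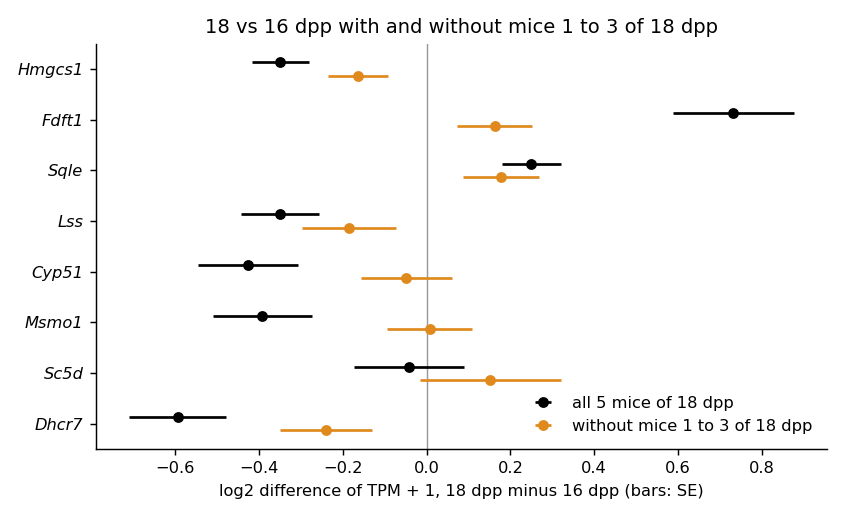
Log2 difference of TPM + 1 between 18 and 16 dpp for each enzyme with all 5 mice of 18 dpp (black) and without mice 1 to 3 (orange), with standard errors from limma. Fdft1 is at 0.73 with all mice and 0.16 without mice 1 to 3, and Msmo1 at -0.39 and 0.0074.

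The order of the enzymes by TPM, which is scaled for transcript length, held from 8 to 14 dpp and then turned. At 8, 10, 12 and 14 dpp it ran Hmgcs1, Msmo1, Dhcr7, Fdft1, Sqle, Cyp51, Lss and Sc5d, although the mice of Msmo1 and Dhcr7, of Fdft1 and Sqle, of Cyp51 and Lss, and of Lss and Sc5d overlapped at each of these ages. Hmgcs1 stood apart from the next enzyme at every age up to 16 dpp. At 18 dpp Fdft1 was in place 2 and Sqle in place 3, and every neighbour in the order overlapped the next. In the adult samples it ran Fdft1, Sqle, Hmgcs1, Sc5d, Cyp51, Lss, Msmo1 and Dhcr7. There the 4 highest did not overlap with each other or with the rest, and Cyp51 overlapped with Lss and Msmo1 with Dhcr7.

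The 8 enzymes together had 454 TPM ± 24.4 (SD, n = 3) at 8 dpp, 511 ± 29.8 (n = 5) at 10 dpp, 340.1 ± 15.8 (n = 5) at 18 dpp and 304 ± 9.81 (n = 4) in the adult samples. Fdft1 made up 10.9% ± 0.138 of that sum at 8 dpp and 11.9% ± 0.585 at 16 dpp. It made up 22.6% ± 8.01 at 18 dpp, where single mice ranged from 12.2% to 29.1%, and it reached 68.2% ± 2.56 in the adult samples. Hmgcs1 went from 37.9% ± 0.508 at 8 dpp to 31.4% ± 2.97 at 18 dpp and 7.97% ± 0.514 in the adult samples. Sqle moved from 9.43% ± 0.793 to 13.5% ± 1.06 and 14.0% ± 1.58. The shares of Msmo1 and Dhcr7 in the adult samples were 1.14% ± 0.179 and 1.13% ± 0.167. Fdft1 and Sqle, the 2 enzymes on either side of squalene, thus made up most of the summed level in the adult samples.

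**Figure D4:**
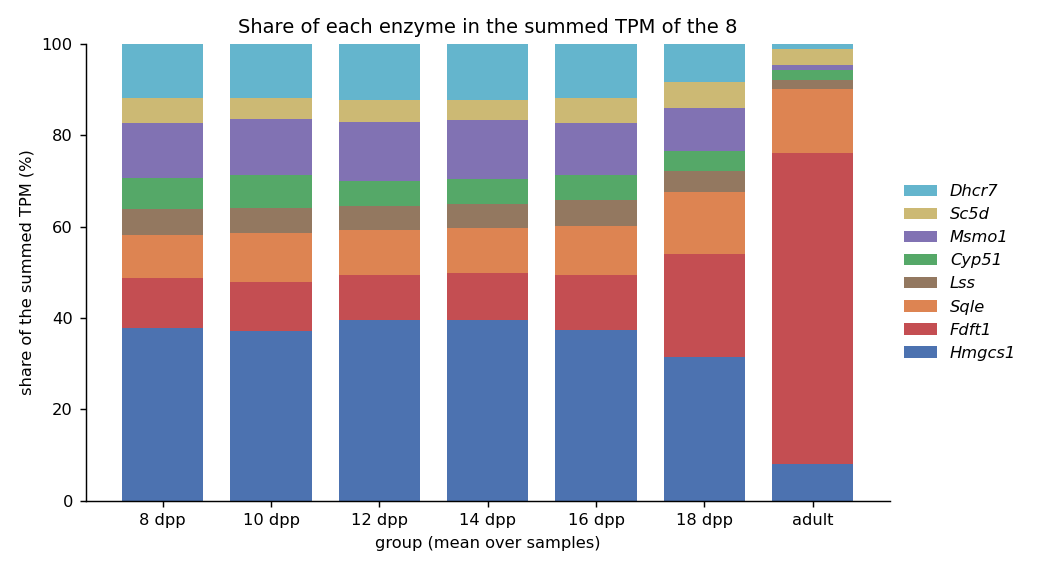
Mean share of each enzyme in the summed TPM of the 8, by juvenile age and in the adult samples. Fdft1 takes 10.9% at 8 dpp, 22.6% at 18 dpp and 68.2% in the adult samples, and Hmgcs1 37.9%, 31.4% and 7.97%.

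Of 12 other enzymes of the pathway 7 fell between 8 and 18 dpp, 1 rose and 4 did not pass the threshold in the limma fit, where 36.3% of all genes were called lower and 31.8% higher, with a median log2 difference of -0.35 beside -0.09 over all genes. Without mice 1 to 3 of 18 dpp 3 were lower and 2 higher, against 27.6% and 29.1% of all genes. In the mevalonate part, Acat2, which makes acetoacetyl-CoA, fell by 0.48, Mvk, mevalonate kinase, by 0.46, Mvd, which decarboxylates the diphosphate, by 1.02, and Fdps, which makes farnesyl diphosphate, by 0.88. Idi1, the isomerase of the isoprenoid units, differed by -0.01 and Pmvk, the kinase after Mvk, by 0.05, and neither passed. Among the sterol-trimming enzymes, Nsdhl fell by 0.69, Hsd17b7 by 0.84 and the scaffold gene Erg28 by 0.24. Lbr, the lamin B receptor with sterol reductase activity, rose by 0.43. Tm7sf2, the other sterol 14-reductase (0.19), and the isomerase gene Ebp (0.16) did not pass.

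Idi1, like Fdft1 and Sqle, was higher at 18 than at 16 dpp. It averaged 35.2 TPM ± 4.54 (SD, n = 5) at 16 dpp, 47.2 ± 4.79 (n = 5) at 18 dpp and 74.5 ± 3.92 (n = 4) in the adult samples, and rose by 0.41 ± 0.10 (SE) from 16 to 18 dpp (limma adjusted p = 0.000688). It was the 1 of the 12 enzymes that rose at this step, while 6 fell, against 23.4% of all genes higher and 30.6% lower. With median-of-ratios factors 2 of the 12 fell and 2 rose, against 17.8% of genes lower and 30.4% higher. Idi1 was singled out after its values were seen. Without mice 1 to 3 of 18 dpp the difference was 0.27 (limma adjusted p = 0.139) for Idi1, and 0 of the 12 were called at this step, where 16.9% of all genes were.

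**Figure D5:**
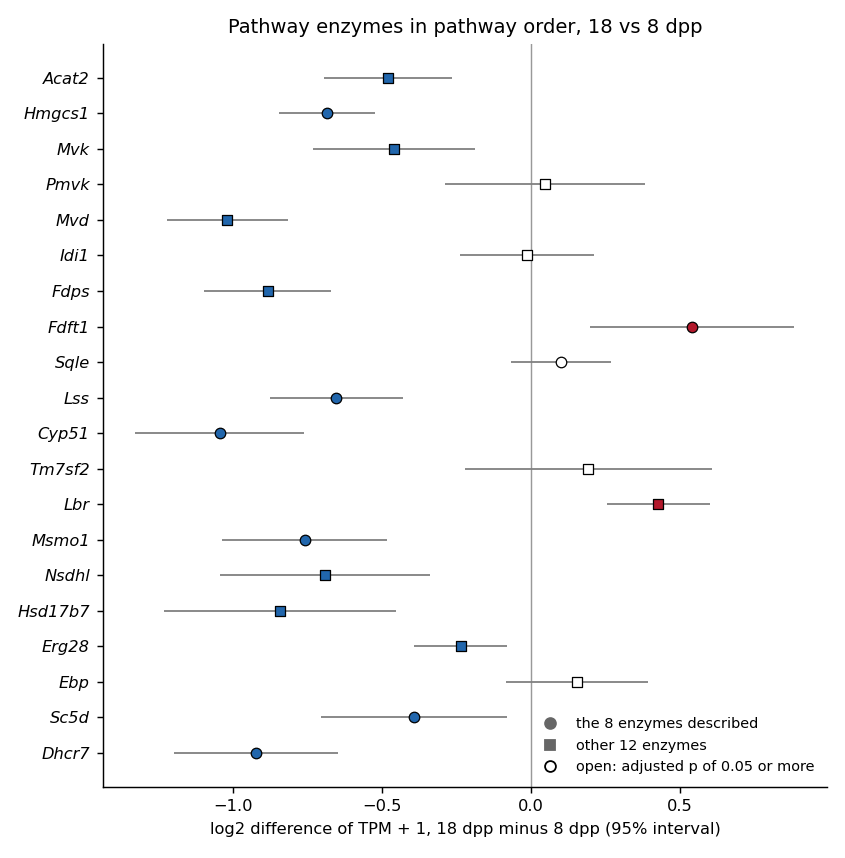
Log2 difference of TPM + 1 between 18 and 8 dpp for enzymes in the order of the pathway from top to bottom, with 95% intervals from limma. Circles are the 8 enzymes described and squares the other 12, filled where the adjusted p was under 0.05. Fdft1 and Lbr are the 2 higher, and 13 are lower.

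Of 9 genes that sense and regulate sterol, 6 fell, 2 rose and 1 (Nr1h2) did not pass between 8 and 18 dpp, where 68.2% of all genes were called, 36.3% lower and 31.8% higher, with a median of -0.96. Srebf2, which encodes the transcription factor of the pathway, fell by 1.47 and averaged 117 TPM at 8 dpp, 42.0 TPM at 18 dpp and 5.13 TPM in the adult samples. Insig1, which retains SCAP and is itself a target of SREBP, fell by 1.63, from 99.6 to 32.1 TPM and 2.88 TPM in the adult samples. Nr1h3, encoding the oxysterol receptor LXR-alpha, rose by 1.73, although from only 1.95 TPM at 8 dpp. Insig2, the INSIG gene that is not induced by SREBP, was the other that rose, by 1.19, from 31.4 to 73.5 TPM, with 84.2 TPM in the adult samples, and was named after its values were seen.

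Of 9 genes for cholesterol uptake, storage, traffic and efflux, 8 fell between 8 and 18 dpp and none rose by limma, against 36.3% of all genes lower and 31.8% higher, with a median of -0.64, and Soat1, which esterifies cholesterol, did not pass. Abcg1, an efflux pump, fell by 1.25, Npc1, which moves cholesterol out of lysosomes, by 0.86 and Stard4, which carries sterol through the cytosol, by 0.86. The 6 genes of other branches from isoprenoid units went both ways: Ggps1, which makes geranylgeranyl diphosphate, fell by 0.39, and Dolk and Dhdds, both of dolichol synthesis, rose by 0.35 and 0.27, while 3 did not pass, beside the same shares of all genes.

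The genes whose profile over the 28 juvenile mice was most like that of each enzyme were searched among the 12224 protein-coding genes whose mean reached 3 TPM, by Pearson's r of log2(TPM + 1), which is a description over mice that share ages. Msmo1 was most like Hmgcs1 (r = 0.956) and Dhcr7 (r = 0.955), the only enzymes of the 8 found among the best 3 of another. Hmgcs1 was closest to Abcd3 (0.967), Ywhah (0.966) and Mtpn (0.965), and Dhcr7 to Pgam1 (0.968), Scarb1 (0.967), a receptor for high-density lipoprotein, and St3gal5 (0.963). Cyp51 was closest to Wbp1l (0.960), Rab14 (0.958) and Rhox8 (0.956), and Lss to Strn (0.948), Mtss1 (0.941) and Tgif2 (0.933). Fdft1 had other neighbours, Fem1b (0.932), Peli2 (0.920) and Zbtb5 (0.918). The best values were lower for Sqle, with Acsl3 (0.691), Acvr1b (0.679) and Gng10 (0.677), and for Sc5d, with Pdgfb (0.755), Phf11d (0.737) and Rnf103 (0.733).

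Transcripts were examined by their percentage of the gene's TPM. Hmgcs1 and Fdft1 had 1 transcript each in the table, and a single transcript made up a median of 98.4% of Sqle, 100% of Cyp51, 90.7% of Msmo1, 88.8% of Dhcr7 and 87.3% of Lss over the 28 mice. Sc5d was split between 2 transcripts, with ENSMUST00000052725 at 77.4% on average at 8 and 10 dpp and 61.8% at 16 and 18 dpp. Of the 10 transcripts of these enzymes that could be tested between those ages, limma called 0 (adjusted p under 0.05 with a shift of 20 points or more), where 2.55% of all transcripts tested were called. The fitted change for this Sc5d transcript was -14.0 ± 5.88 points (SE), with a limma unadjusted p of 0.0256 and an adjusted p of 0.11. The fitted changes weigh the ages equally, whereas the percentages given for those pairs of ages are means over mice. Between 10 and 18 dpp alone both Sc5d transcripts were called, which is 1 change because their percentages sum to 100%, and 3.68% of all transcripts tested were called. For ENSMUST00000052725 the mice ranged from 61.9% to 100% at 10 dpp and from 42.2% to 61.7% at 18 dpp. Its mean was 69.8% at 8 dpp, 81.9% at 10 dpp, the highest of the ages, and 50.9% at 18 dpp. A minor Msmo1 transcript, ENSMUST00000132013, went from 5.10% to 3.13% (adjusted p = 0.03), a change below 20 points.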

How the data were processed

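Poly-A RNA of germ cells from 28 juvenile mice and of 4 pools of adult spermatocytes was sequenced as 100 bp paired reads. The study's methods describe 2 technical replicates, sequenced in separate lanes, whose reads were merged. The authors aligned the reads with Bowtie 1.0.0 and estimated expression with RSEM 1.2.8 on a combined transcriptome of Ensembl release 75, NONCODE version 4 and piRNA precursors, per the study's methods and the submitters' processing notes. The deposited transcript table and the deposited adult gene table hold TPM. The juvenile gene table the authors deposited holds a score that is not TPM: its columns summed to 14108255 to 18601026, and 2 to the power of the natural log of (value + 1), minus 1, gave the summed TPM of the gene's transcripts within 0.2 TPM for 20288 of 20368 genes and within 0.02 for the 8 enzymes, so it was converted that way. The gene table held the 20368 genes with at least 3 TPM in at least 1 mouse. The tables hold no counts, so depth is unknown. Same-age mice correlated at 0.947 to 0.984.

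For the ages, limma 3.58.1 (R 4.3.3) was fitted to log2(TPM + 1), with 6 ages in 1 model and a trended prior, and Benjamini-Hochberg adjustment over all genes. A call is an adjusted p under 0.05. Transcript percentages were fitted with limma for 23830 transcripts, contrasting the mean of 16 and 18 dpp with that of 8 and 10 dpp. Each test was tested on simulated data. Levels, shares, markers, likeness and motif matches were computed in Python 3.11.15 with numpy 2.4.6 and pandas 2.3.3. Gene positions came from GENCODE release M21 (GRCm38). The authors' gene lists were not used. Each juvenile mouse was 1 replicate and each adult pool 1 replicate. Alternatives were other pseudocounts, filters, scalings and priors, only the ages compared, sets of mice, a replicate block and each replicate left out.

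The 8 enzymes were all described, with 12 other enzymes by direction and difference, and regulators, traffic and branch genes by counts and those with the greatest changes. The members and lists were chosen with earlier results of these data known, and some listed genes are not reported here. Same-numbered mice of different ages did not deviate together: over 57 pairs r ranged from -0.248 to 0.253, and 3 were over 0.1.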

Additional observations from a re-analysis of the deposited data

Results flagged for a closer look

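In 3 of 48 groups of an enzyme and an age or the adult samples, 1 sample lay far from the rest by Dixon's test, whose critical value is 0.71 for 5 samples and 0.829 for 4, and chance gives about 1 in 20. Hmgcs1 was lowest in mouse 7 of 14 dpp, at 156 TPM against 174 to 180.4 TPM in the others. Lss was lowest in mouse 1 of 12 dpp, at 21 TPM against 23.9 to 24.8 TPM. Sc5d was lowest in mouse 4 of 10 dpp, at 18.7 TPM against 24.6 to 26.9 TPM.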

How the results depend on the processing

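Of 894 values of single enzymes under an alternative, 847 kept their direction and side of the threshold, 38 lost the call, 1 gained it and 8 reversed. The number of enzymes called from 8 to 10 dpp went from 1 to 0 with no filter, median-of-ratios factors, a prior without trend, only the ages compared, mice 1 to 3 alone, or the replicate block, and ranged from 0 to 1 with single mice left out. From 10 to 12 dpp it went from 2 to 6 with mice 1 to 3 alone, 0 with later-numbered mice alone and 4 without mice 1 to 3 or without mice 4 and 5 of 18 dpp. From 14 to 16 dpp it went from 2 to 4 with only the ages compared, with mice 1 to 3 alone and without either set of 18 dpp. From 16 to 18 dpp it went from 7 to 0 with later-numbered mice alone or without mice 1 to 3 of 18 dpp. It was 5 with only the ages compared, 6 with median-of-ratios factors, and 7 with mice 1 to 3 alone and without mice 4 and 5 of 18 dpp. Single mice left out gave 2 to 3, 2 to 3 and 7 for these 3 steps, 6 to 7 between 8 and 18 dpp and 7 to 8 for any age. With only the ages compared, 5 enzymes were called between 8 and 18 dpp, all of them lower. Transcripts called went from 0 to 2 between 10 and 18 dpp.

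Between 16 and 18 dpp Msmo1 reversed to 0.022 in later-numbered mice and 0.0074 without mice 1 to 3 of 18 dpp. Sc5d reversed to 0.12 with median-of-ratios factors, 0.27 in later-numbered mice and 0.15 without mice 1 to 3, and ranged from -0.15 to 0.030 with single mice left out. Between 8 and 18 dpp Fdft1 reversed to -0.027 without mice 1 to 3 and was not called with only the ages compared (limma adjusted p = 0.118). With median-of-ratios factors Idi1 reversed to 0.16 and Nr1h2 to 0.041, and Pmvk reversed to -0.090 with quantile normalization. With mice 1 to 3 alone, as without mice 4 and 5 of 18 dpp, Idi1 reversed to 0.081, Pmvk to -0.060, Ebp to -0.016 and Soat1 to -0.0055. Single mice left out gave -0.025 to 0.19 for Pmvk and -0.096 to 0.053 for Idi1. None of these genes but Fdft1 and Msmo1 was called for that comparison in the first place. The cause was not tested. The replicate block left 7 enzymes called between 8 and 18 dpp and between 16 and 18 dpp. Later-numbered mice alone gave no comparison with 8 dpp, which had none. TPM keeps no counts, so what depth limits is unknown.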
